A study of Mus musculus with 6 samples.

Results

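The cytotoxic and natural killer (NK)/ILC1 program was followed through 10 genes in lung group 2 innate lymphoid cells: *Gzma*, *Gzmb*, *Prf1* and *Nkg7* of the cytotoxic granule, the surface receptor genes *Ncr1*, *Klrk1*, *Klrc1*, *Klrd1* and *Cd244a*, and the transcription factor gene *Tbx21*. They are 10 of the 16381 genes listed by the study, and all 10 had a value in each of the 6 samples. The genes were chosen by their normalised read counts in these same 6 samples, as they were known from earlier results to be lower with melatonin, so their difference between the groups is given as a description, with no p-value, and nothing is read from the calls that a test over all genes made for them.

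The cells were activated ILC2s (aILC2s) from the lungs of wild-type BALB/c mice that received 0.5 µg of IL-33 per day for 3 days. Per the methods the mice were BALB/cJ females of 6 to 8 weeks, and the cells were sorted to over 95% purity as live CD45+, lineage-negative, ST2+ and CD127+ cells. One group of 3 samples was cultured for 24 hours with 250 µM melatonin, and the other group of 3 samples was cultured for the same time with its solvent DMSO, named vehicle here. All 6 samples therefore come from IL-33-exposed animals, and no sample of unexposed animals was analysed here. The lineage cocktail of the sort contained an antibody to CD335 (NKp46), which is the protein made from *Ncr1*, together with antibodies to T cell, B cell, myeloid and mast cell antigens. The question was which transcripts differ between melatonin-treated and vehicle-treated aILC2s.

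Cytotoxic lymphocytes store granzymes and perforin in granules and release them onto a target cell, where perforin opens the membrane and the granzymes, which are serine proteases, enter and cleave proteins of the target. Activating and inhibitory receptors on the surface decide whether the granules are released. T-bet, the product of *Tbx21*, directs the type 1 program of NK cells and ILC1s, whereas ILC2s depend on GATA3 and are known for type 2 cytokines. Mouse ILC2s can nevertheless carry granzyme transcripts, and a part of them can gain ILC1 features when IL-12 and IL-18 are present.

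The values are normalised read counts, that is, estimated reads per gene divided by a factor for the size of each library. Each library held between 17056267 and 20511708 estimated reads. *Gata3*, *Il1rl1* and *Rora*, which define ILC2s, were present in all 6 samples. The sum of 12 ILC2 marker genes lay between 198324 and 211771 in vehicle and between 138368 and 158700 with melatonin. By limma, 7 of the 12 were called lower and 2 higher, beside 24.7% and 24.5% of all genes tested. The transcripts of the sex chromosomes differed between libraries. The Y-linked *Eif2s3y* was at 1359.9, 1363 and 1230 in vehicle and at 946, 0 and 0 with melatonin, while *Xist* was at 13.6, 7.46 and 5.81 in vehicle and at 0, 579 and 1091 with melatonin. Melatonin libraries 2 and 3 thus held no Y transcripts while the other 4 did, although the methods name females only. All 10 genes lie on autosomes, and their values in the first melatonin library, which carried Y transcripts as the vehicle libraries did, are given below beside the others.

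The promoters of the genes are shown first, as a description. Windows from 250 bases before to 50 bases after the transcription start were available from RefSeq for 9 of the 10 genes, all but *Klrd1*, and were searched on both strands for the letters TGTGGT, which RUNX factors are known to bind. Of the 9 windows, 7 held these letters, whereas 16.8% of the 32851 mouse windows of the same length did. The 5 windows printed here are those of the granule genes and of *Ncr1*, the genes with the highest vehicle levels per kilobase, and the capitals mark the letters TGTGGT or, for the opposite strand, ACCACA:
*Gzma*: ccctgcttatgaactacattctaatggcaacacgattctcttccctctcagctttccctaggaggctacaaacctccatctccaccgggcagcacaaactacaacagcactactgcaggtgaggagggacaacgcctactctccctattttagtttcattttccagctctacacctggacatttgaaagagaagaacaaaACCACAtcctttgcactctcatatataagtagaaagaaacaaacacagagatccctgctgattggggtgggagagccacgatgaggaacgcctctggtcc
*Gzmb*: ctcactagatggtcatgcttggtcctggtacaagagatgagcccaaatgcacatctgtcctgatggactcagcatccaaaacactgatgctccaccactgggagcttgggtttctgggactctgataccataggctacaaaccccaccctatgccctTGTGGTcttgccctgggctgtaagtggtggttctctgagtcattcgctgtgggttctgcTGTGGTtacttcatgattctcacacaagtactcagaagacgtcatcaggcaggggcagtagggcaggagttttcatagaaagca
*Prf1*: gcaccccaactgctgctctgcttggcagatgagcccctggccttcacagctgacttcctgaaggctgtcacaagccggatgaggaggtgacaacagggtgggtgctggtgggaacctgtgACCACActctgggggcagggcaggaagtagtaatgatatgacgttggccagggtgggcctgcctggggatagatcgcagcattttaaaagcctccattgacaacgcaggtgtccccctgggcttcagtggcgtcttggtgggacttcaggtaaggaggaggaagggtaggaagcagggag
*Nkg7*: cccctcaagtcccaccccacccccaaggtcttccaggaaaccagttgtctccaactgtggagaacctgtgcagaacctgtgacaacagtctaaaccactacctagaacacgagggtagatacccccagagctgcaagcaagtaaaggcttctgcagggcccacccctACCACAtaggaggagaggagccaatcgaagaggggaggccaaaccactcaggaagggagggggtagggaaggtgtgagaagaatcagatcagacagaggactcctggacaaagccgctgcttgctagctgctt
*Ncr1*: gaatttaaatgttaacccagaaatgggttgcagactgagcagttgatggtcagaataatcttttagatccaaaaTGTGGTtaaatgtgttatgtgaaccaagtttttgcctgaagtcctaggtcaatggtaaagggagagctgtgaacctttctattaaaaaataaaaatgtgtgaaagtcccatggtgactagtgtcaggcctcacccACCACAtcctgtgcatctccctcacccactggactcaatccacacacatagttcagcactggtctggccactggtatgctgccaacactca
In GRCm39 these windows lie at chr13:113237466-113237765 (minus strand) for *Gzma*, chr14:56499742-56500041 (minus strand) for *Gzmb*, chr10:61133365-61133664 (plus strand) for *Prf1*, chr7:43086312-43086611 (plus strand) for *Nkg7* and chr7:4340464-4340763 (plus strand) for *Ncr1*. The starts are those of RefSeq and can differ from the Gencode gene ends given below. The *Gzmb* window lies wholly before its Gencode gene. Counted from the RefSeq start, the letters began 50 bases before the start in *Gzma*, 130 before it in *Prf1* and 83 before it in *Nkg7*. *Gzmb* held them at 93 and at 34 bases before the start, and *Ncr1* at 176 and at 41. The windows of *Klrk1* and *Klrc1* each held one match, 129 and 87 bases before the start, and those of *Tbx21* and *Cd244a* held none. The letters GGTGTGA, which T-box factors such as T-bet are known to bind, were in 1 of the 9 windows (*Nkg7*) against 3.98% of all windows. The letters TTCNNNGAA of STAT factors were in 2 of the 9 (*Gzmb* and *Nkg7*) against 8.30%. A match is a description of the letters only and no binding was measured here.

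All 10 genes were lower with melatonin, and for every one the 3 melatonin samples lay below the 3 vehicle samples. The drop was between 5.17-fold for *Prf1* and 56.0-fold for *Nkg7* among the genes that could be measured in both groups, and the 5 receptor genes were at or close to 0 in every melatonin sample. The limma test was run over the 14419 genes that reached 10 in any sample and called 10 of the 10 lower, where 24.7% of the genes were called lower and 24.5% were called higher. All melatonin samples lay below all vehicle samples for 30.3% of the genes tested. All 10 were also called with a drop of at least 2 on the log2 scale, beside 3.35% of the genes tested. Nothing is read from the 10 of 10, because the same contrast chose the genes. The minimum of 10 had been reached in the vehicle samples alone by 7 of the 10, all but *Gzma*, *Gzmb* and *Prf1*. In bulk RNA, fewer cells that carry a transcript and less of it per cell cannot be told apart, which holds for all values given here.

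**Figure D1:**
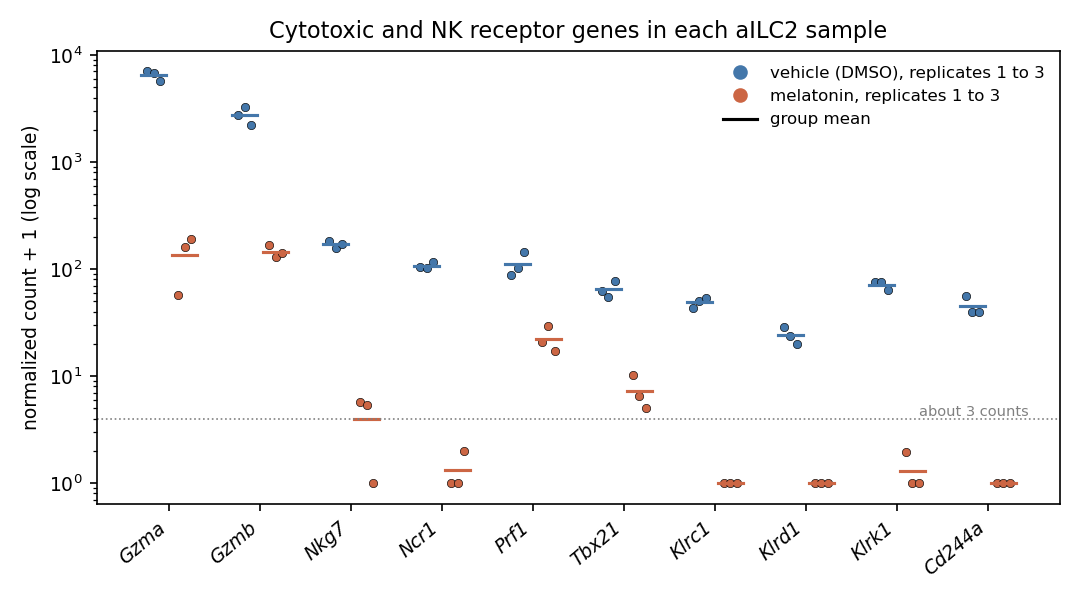
Normalised read count of each of the 10 genes in each sample on a log axis, with the 3 vehicle and the 3 melatonin samples as points and the genes ordered by their vehicle level per kilobase. The melatonin points lie below the vehicle points in all 10 genes, and for *Klrc1*, *Klrd1* and *Cd244a* all melatonin samples are at 0; the dotted line marks about 3 estimated reads.

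Among the granule genes, *Gzma* was the most abundant. It encodes granzyme A, a protease that cleaves after basic residues, and it lies at chr13:113230355-113237524 on the minus strand of GRCm39 (ENSMUSG00000023132). Its normalised read counts were 7021, 6797 and 5677 in vehicle and 56.0, 159.5 and 190.0 with melatonin. The group means were 6499 ± 720.1 and 135 ± 70.2 (SD, n = 3 each), a 48.1-fold drop, with a log2 fold change of -5.75 (SE 0.38). The melatonin samples were spread over a wider relative range than the vehicle samples, and the lowest of them was the first, which had the Y transcripts. Set alone against the vehicle samples, this first sample gave a log2 fold change of -6.83, and the fit without it gave -5.21.

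*Gzmb* encodes granzyme B, which cleaves after aspartate and activates caspases in the target cell. The gene lies at chr14:56496295-56499717 on the minus strand (ENSMUSG00000015437). It was at 2770.3, 3247 and 2197 in vehicle and at 165, 128 and 139 with melatonin. The mean went from 2738 ± 526 to 144 ± 19.3 (SD, n = 3 each), 19.0-fold lower, with a log2 fold change of -4.23 (SE 0.16). With melatonin the 3 samples lay closer together for *Gzmb* than for *Gzma*, and the first sample was the highest for *Gzmb* and the lowest for *Gzma*.

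The proportion of both granzymes differed accordingly. Per kilobase of transcript, the vehicle samples held 3.49, 2.89 and 3.56 times as much *Gzma* as *Gzmb*, and the melatonin samples 0.467, 1.72 and 1.89 times as much. *Gzma* thus outweighed *Gzmb* in every vehicle sample, and in the first melatonin sample the order was turned round. Both granzymes made up most of the summed normalised counts of the 10 genes, 92.1% to 94.4% in vehicle and 86.5%, 88.3% and 94.0% with melatonin. That sum was 10424, 10640.1 and 8551 in vehicle and 256, 326 and 349.8 with melatonin.

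*Prf1*, which encodes the pore-forming protein perforin, showed the smallest change of the 10. The gene lies at chr10:61133546-61140461 on the plus strand (ENSMUSG00000037202). It was at 87.7, 102 and 142 in vehicle and at 19.6, 28.4 and 16.1 with melatonin, a 5.17-fold drop with a log2 fold change of -2.33 (SE 0.29). The groups did not overlap, and *Prf1* was still counted in every melatonin sample.

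*Nkg7* encodes a membrane protein of the cytotoxic granule that is needed for granule release. It lies at chr7:43086497-43087678 on the plus strand (ENSMUSG00000004612). The values were 181, 156 and 171 in vehicle and 4.67, 4.37 and 0 with melatonin. Since few reads remained with melatonin, the drop was also taken from the summed estimated reads, 523 in vehicle and 9 with melatonin, which gave a ratio of 56.0 after library scaling (exact 95% interval 29.3 to 123, covering counting error only). The log2 fold change was -5.77 (SE 0.62) and depended on the third melatonin sample, which was at 0, since it was -4.94 without it. It also depended on the value added before the logarithm, being -7.04 with 0.1 added and -3.80 with 10 added.

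The receptor genes fell to the limit of detection with melatonin. A count of 3 reads in a library was taken as that limit, and a gene at or under it in all 3 melatonin samples is given as lower by at least the stated fold. *Ncr1* encodes NKp46, an activating receptor of NK cells, ILC1s and a part of the ILC3s, and lies at chr7:4340710-4348171 on the plus strand (ENSMUSG00000062524). It was at 104, 101 and 114 in vehicle and at 0, 0 and 1.01 with melatonin, and was at least 35.1-fold lower. Its vehicle samples were close to each other, 106 ± 7.01 (SD, n = 3), although the sort had used an antibody to its protein to remove cells.

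*Klrk1*, *Klrd1* and *Klrc1* encode C-type lectin-like receptors of the NK gene complex on chromosome 6. NKG2D, the product of *Klrk1* (chr6:129587286-129600827, minus strand, ENSMUSG00000030149), is an activating receptor for stress-induced ligands. Its gene was at 74.7, 74.0 and 63.0 in vehicle and at 0.934, 0 and 0 with melatonin, at least 23.3-fold lower. Only the first melatonin sample had any *Klrk1* read.

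NKG2A, the product of *Klrc1* (chr6:129642978-129655936, minus strand, ENSMUSG00000030167), pairs with CD94, the product of *Klrd1* (chr6:129568677-129575738, plus strand, ENSMUSG00000030165), to form an inhibitory receptor. *Klrc1* was at 41.9, 49.1 and 52.7 in vehicle and at 0 in each melatonin sample, which is at least 15.8-fold lower. *Klrd1* was at 28.0, 22.5 and 18.9 in vehicle and likewise at 0 with melatonin, at least 7.63-fold lower. Both partners of the receptor were thus counted in every vehicle sample and in no melatonin sample, and the smaller bound of *Klrd1* follows from its lower vehicle count.

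*Cd244a* encodes 2B4, a receptor of the SLAM family that binds CD48. The gene lies at chr1:171386708-171437315 on the plus strand (ENSMUSG00000004709). It was at 55.1, 38.4 and 38.8 in vehicle and at 0 in each melatonin sample, which is at least 14.5-fold lower. It overlaps *Ly9*, which lies on the other strand and was at 534, 569.7 and 459 in vehicle and 232, 170 and 188 with melatonin, and whether the counting used the strand is not given in the sources used here.

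*Tbx21*, the transcription factor gene among the 10, lies at chr11:96988897-97006158 on the minus strand (ENSMUSG00000001444). It was at 60.7, 53.4 and 76.6 in vehicle and at 9.34, 5.46 and 4.02 with melatonin, 10.1-fold lower, with a log2 fold change of -3.20 (SE 0.37). The log2 fold change was -2.18 with 10 added before the logarithm and -3.39 with 0.1 added. *Gata3*, the factor that ILC2s depend on, had a mean of 19365 in vehicle and 20469 with melatonin (log2 fold change 0.07, adjusted p = 0.667, limma). Per kilobase, *Tbx21* was at 0.00485, 0.00414 and 0.00597 of the *Gata3* level in vehicle and at 0.000577, 0.000464 and 0.000323 of it with melatonin. *Tbx21* was therefore a minor transcript beside *Gata3* in both groups, and its proportion was lower in all melatonin samples. *Eomes*, the related T-box factor of NK cells, stayed under the minimum of 10 in all samples and was not tested.

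**Figure D2:**
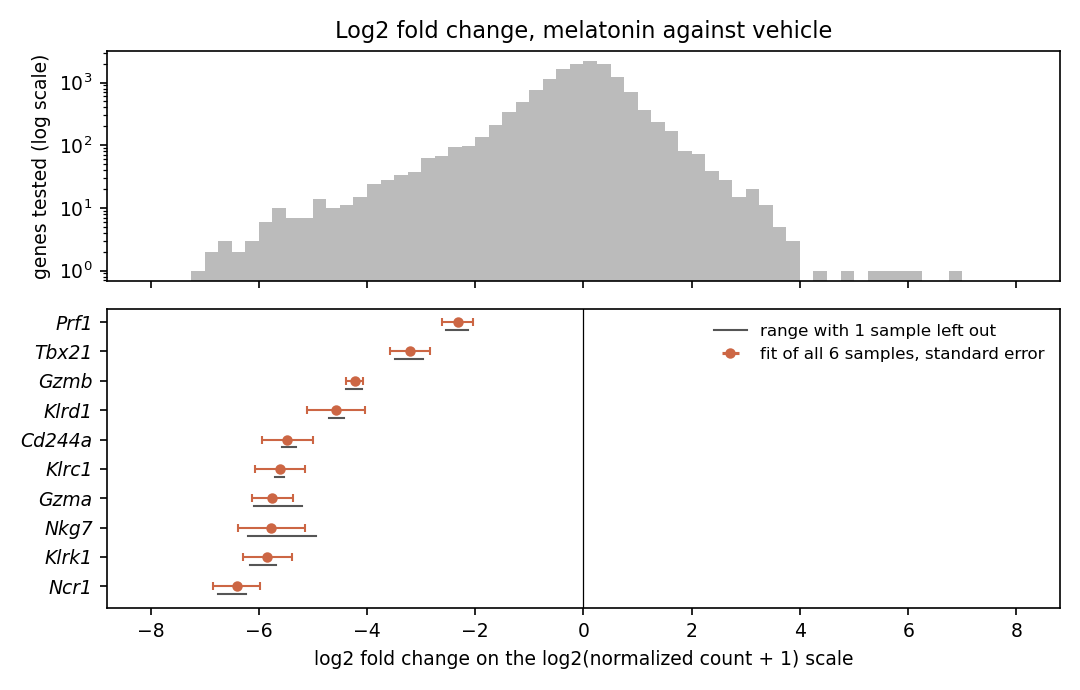
The upper panel is a histogram of the log2 fold change (melatonin minus vehicle, on the log2(value + 1) scale) over the 14419 tested genes, and the lower panel gives the 10 genes with their SE as bars and the range over fits without a single sample as a thin line. All 10 lie left of 0, from -6.41 for *Ncr1* to -2.33 for *Prf1*. The positions of *Nkg7*, *Ncr1*, *Klrk1*, *Klrc1*, *Cd244a*, *Klrd1* and *Tbx21* depend on the value of 1 added before the logarithm.

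Compared per kilobase of transcript, the vehicle levels of the 10 genes covered a wide range. *Gzma* had 6237 ± 691 and was followed by *Gzmb* with 1907 ± 366, *Nkg7* with 192 ± 14.6, *Ncr1* with 70.8 ± 4.67 and *Prf1* with 41.7 ± 10.5 (normalised counts per kilobase, SD, n = 3 each). *Gzma* ranked 173rd and *Gzmb* 707th among the listed genes with a known length. The sample ranges of *Tbx21* (21.5 to 30.8), *Klrc1* (21.1 to 26.5), *Klrd1* (18.5 to 27.5) and *Klrk1* (18.7 to 22.2) overlapped, so that no order was seen among these 4. *Prf1* lay above them and *Cd244a* (10.2 to 14.6) below. With melatonin the order of *Gzma* and *Gzmb* was no longer separated by the sample spread, at 130 ± 67.4 and 100.2 ± 13.4 per kilobase.

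The vehicle samples did not vary in one direction. *Gzma* and *Gzmb* were lowest in the third vehicle sample, whereas *Prf1* and *Tbx21* were highest there. The club cell transcript *Scgb1a1* was also highest in this sample, at 95.2, 21.5 and 1045 over the 3 vehicle samples, and its part in the values was not tested.

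Of the 10 genes, 5 went, all of them receptor genes, from at least 10 in every vehicle sample to 3 reads or fewer in every melatonin sample. Among all 12730 genes with at least 10 in every vehicle sample, 0.495% (63 genes) did so. In the band of vehicle means covered by the 8 less abundant genes of the program it was 0.969% of 2890 genes. As the genes were picked for this contrast, the counts are given for size alone.

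*Klrd1*, *Klrk1* and *Klrc1* lie close to each other within 87.3 kb, and the genes around them were examined for the same contrast. Within 150 kb of the 3 genes on either side, 9 genes were listed, 8 of the 14 annotated protein-coding genes and the non-coding *1700101I11Rik*, which was too low to be tested (means of 4.74 and 2.74). *Klrc2*, which lies between *Klrk1* and *Klrc1* and encodes the activating receptor NKG2C, was at 6.61, 11.8 and 14.5 in vehicle and at 0 with melatonin (at least 3.61-fold lower, limma adjusted p = 0.00231). *Klri2* on the far side of *Klrc1* was at 14.9, 13.1 and 12.6 and then at 0 (at least 4.47-fold lower, limma adjusted p = 0.000891). Both genes reached the minimum of 10 in vehicle alone, so their entry into the test rested on the group in which they were high. All 5 *Klr* genes listed in this stretch were thus at or next to 0 with melatonin.

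The neighbours that are not NK receptor genes did not share this. *Gabarapl1*, an autophagy gene and the nearest listed gene before *Klrd1*, was higher with melatonin, 787 in vehicle against 1130.0 (log2 fold change 0.51, limma adjusted p = 0.00481). *Clec7a*, which encodes the β-glucan receptor dectin-1, fell from 382 to 110.4 (log2 fold change -1.81, limma adjusted p = 0.000287) and was still counted. *Olr1* had means of 22.7 and 9.04 and did not pass the test (limma adjusted p = 0.0808).

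**Figure D3:**
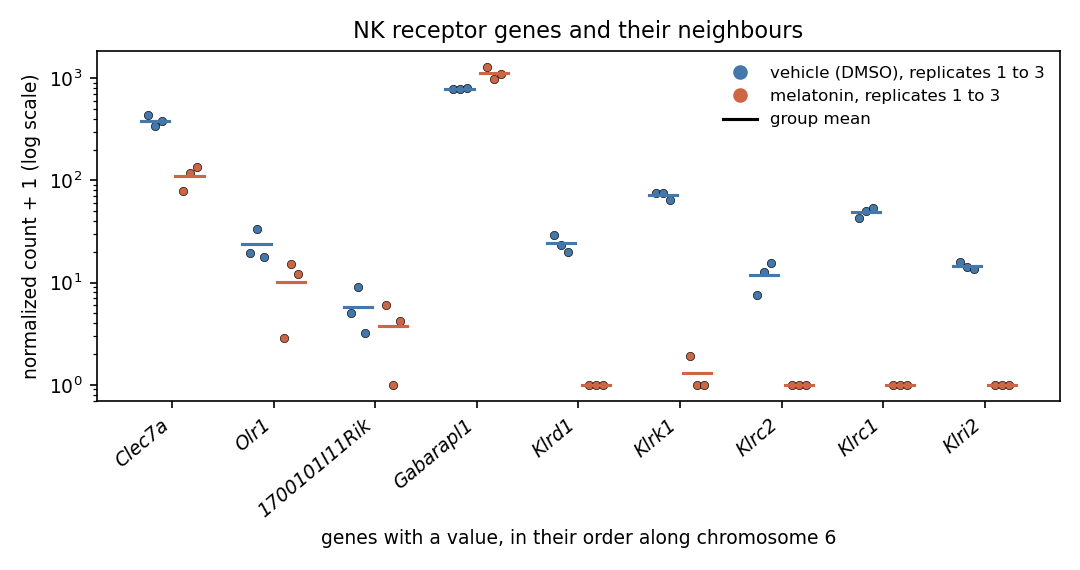
Listed genes around *Klrd1*, *Klrk1* and *Klrc1* on chromosome 6 in their genomic order, with the normalised read count of each sample (3 vehicle, 3 melatonin) on a log axis. The *Klr* genes lie at or next to 0 with melatonin, whereas *Gabarapl1* is higher with melatonin and *Clec7a* and *Olr1* keep counts in melatonin samples.

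The pattern of *Gzma* over the 6 samples was compared with that of every other gene with a mean normalised read count of at least 100, which were 9989 genes. The most similar was *Ifitm2*, an interferon-induced membrane protein gene, with Pearson r = 0.9997 on the log2 scale and a log2 fold change of -4.14. *Il1r2*, which encodes the IL-1 decoy receptor, followed with r = 0.9996 and a log2 fold change of -5.12, and the pseudogene *Dnajc19-ps* with r = 0.9995 and -0.54. With 2 groups of 3 samples such values mostly reflect the group difference, and they are given without a test.

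The other genes of the pathway were taken from 8 lists by role, 112 genes that are not among the 10. Of these, 89 had a listed value and 81 were tested. By limma with Benjamini-Hochberg adjustment over all 14419 genes, 42 of the 81 were lower with melatonin, 14 were higher and 25 were not called, beside 24.7% lower and 24.5% higher over all genes. The minimum had been reached in vehicle alone by 16 of the 81.

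Beside *Gzma*, *Gzmb* and *Prf1*, the granule contents were mixed, with 3 of 8 tested genes lower and 3 higher. Over all genes, 24.7% were lower and 24.5% higher. The median log2 fold change of the list was 0.17, and that of all tested genes was -0.00. *Gzmc*, a further granzyme gene, was at 35.1 ± 13.3 in vehicle and at 0 with melatonin, at least 11.6-fold lower (limma adjusted p = 0.000173). *Gzmc* reached the minimum in vehicle alone, as did *Serpinb9b*, so that of the 3 genes called lower only *Ctsw* was high enough in both groups. *Ctsw*, a cathepsin gene of cytotoxic cells, fell from 377 ± 20.4 to 134.5 ± 21.1 (log2 fold change -1.49, limma adjusted p = 0.000152). *Ctsc*, whose product activates progranzymes, rose from 2662 ± 215 to 3584 ± 372 (log2 fold change 0.43, limma adjusted p = 0.0071). *Srgn*, which encodes the granule proteoglycan serglycin, had log2 fold change -0.09 and overlapping groups (limma adjusted p = 0.619). *Serpinb9b* was at 25.2, 45.0 and 9.44 in vehicle and at 0.934, 3.28 and 2.01 with melatonin (limma adjusted p = 0.00475), and *Serpinb6b*, of the same inhibitor family, rose from 80.8 to 152 (log2 fold change 0.90, limma adjusted p = 0.00561). *Serpinb9*, the inhibitor of granzyme B, rose from 443.5 ± 49.4 to 805 ± 238 (log2 fold change 0.83, limma adjusted p = 0.00679), the opposite direction to its target protease.

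Of 11 genes of granule release tested, 1 was lower, 4 were higher and 6 were not called, beside 24.7% lower and 24.5% higher over all genes (median log2 fold change 0.02). *Unc13d*, which encodes the priming factor Munc13-4, fell from 3405 ± 62.7 to 2318 ± 184 (log2 fold change -0.56, limma adjusted p = 0.000765). *Snap23*, a SNARE gene, rose from 783 ± 55.5 to 1667 ± 117 (log2 fold change 1.09, limma adjusted p = 7.41e-05). *Lamp2*, a gene of the lysosomal membrane, rose from 3066 to 4295 (log2 fold change 0.48, limma adjusted p = 0.00477). *Lamp1*, whose product appears on the surface of degranulating cells, rose from 4494 to 7652 (log2 fold change 0.83, limma adjusted p = 0.0243) and lost the call without the first or second melatonin sample. The fourth gene called higher, *Stxbp2*, lost the call without any one of the vehicle samples.

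Among further NK cell receptor genes, 12 of 15 tested were lower and none was higher, beside 24.7% and 24.5% over all genes. The other 3 were not called. The median log2 fold change of the list was -2.48, or -2.0 with the genes at 3 reads or fewer set at their bound. The minimum had been reached in vehicle alone by 8 of the 15. *Klrg1*, which encodes an inhibitory receptor that activated ILC2s also carry, was the most abundant and fell from 6799 ± 577 to 1518 ± 23.7 (log2 fold change -2.16, SE 0.08, limma adjusted p = 1.53e-06). *Klrb1f*, another lectin-like receptor gene of chromosome 6, fell from 30.9 to 1.58 (log2 fold change -3.85, limma adjusted p = 0.00149), and *Slamf7* from 19.9 to 1.68 (log2 fold change -3.51, limma adjusted p = 0.00521, and -4.37 without melatonin sample 3). Both are among the genes that reached the minimum in vehicle alone. *Cd226*, the gene of the activating receptor DNAM-1, fell from 902 ± 42.4 to 596 ± 21.7 (log2 fold change -0.60, limma adjusted p = 0.000824). *Klrg1* and *Cd226* thus kept a high count with melatonin, whereas *Ncr1* and *Klrk1* had at most 1 read in any of these samples.

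Of the adaptors that carry the signal of these receptors, 6 of 9 tested were lower and none was higher. Over all genes the shares were 24.7% and 24.5%. Among the 6, *Lat* (log2 fold change -0.45, limma adjusted p = 0.0372) was called in only 1 of the 6 fits without a single sample. *Tyrobp*, which encodes DAP12, fell from 86.9 ± 21.0 to 9.06 ± 7.86 (log2 fold change -3.85, limma adjusted p = 0.00817), with a log2 fold change of -2.57 without melatonin sample 1, which was at 0, and of -4.47 and -4.52 without sample 2 or 3. *Fcer1g*, whose product is the signalling chain of NKp46, fell from 164 ± 43.2 to 25.8 ± 6.15 (log2 fold change -2.62, limma adjusted p = 0.000204). *Hcst*, which encodes DAP10, the adaptor of NKG2D, was not called, at means of 383 and 465 (log2 fold change 0.25, limma adjusted p = 0.286). *Tyrobp* and *Fcer1g* are also expressed by myeloid cells, whose markers are given below. *Cd247*, the gene of the CD3ζ chain, fell by 0.61 on the log2 scale (limma adjusted p = 0.00449), and *Syk* by 0.69 (limma adjusted p = 0.0177), a call lost without the first or second vehicle sample. The most abundant genes of this list were *Vav1*, which fell from 4727 to 3506 (log2 fold change -0.44, limma adjusted p = 0.00438), and *Zap70*, which was not called (log2 fold change -0.27, limma adjusted p = 0.344).

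Beside *Tbx21*, 5 of 11 transcription factor genes tested were lower and 2 were higher, against 24.7% and 24.5% of all genes. *Runx3*, which NK cells and ILC1s need, fell from 1736 ± 69.1 to 1039.8 ± 105 (log2 fold change -0.74, limma adjusted p = 0.000428), and *Id2*, which all ILCs need, fell from 22266 ± 799 to 12378 ± 742 (log2 fold change -0.85, limma adjusted p = 0.000105). *Ikzf2*, which encodes Helios, fell from 299 to 182 (log2 fold change -0.71, limma adjusted p = 0.00574). *Stat4*, the factor that acts downstream of IL-12, went the other way, from 953 ± 41.5 to 1809 ± 344 (log2 fold change 0.91, limma adjusted p = 0.000642). The other gene called higher, *Tox*, lost the call when any vehicle sample was left out.

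Of 9 tested cytokine receptor genes that feed this program, 4 were lower and 2 higher, beside 24.7% and 24.5% over all genes. Of the 2 higher genes, *Tgfbr2* lost the call without any one of the vehicle samples. *Il12rb2*, which encodes the inducible chain of the IL-12 receptor, was at 38.1, 28.0 and 39.3 in vehicle and at 0 with melatonin, at least 11.6-fold lower (limma adjusted p = 0.000114), and reached the minimum in vehicle alone. Its partner *Il12rb1* fell from 6058 to 4077 (log2 fold change -0.57, limma adjusted p = 0.000436), and *Il2rb*, the shared chain of the IL-2 and IL-15 receptors, from 15328 ± 214 to 9511 ± 876 (log2 fold change -0.69, limma adjusted p = 0.000361). *Il21r* fell from 25.7 to 6.79 (log2 fold change -1.98, limma adjusted p = 0.0116). *Ifngr1*, a chain of the interferon-γ receptor, rose from 1924 to 3614 (log2 fold change 0.88, limma adjusted p = 0.00241).

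Against 24.7% lower and 24.5% higher over all genes, 8 of 9 tested secreted and surface effectors were lower and none was higher. Their median log2 fold change was -4.57, or -2.92 with the genes at 3 reads or fewer set at their bound, and 5 of the 9 had reached the minimum in vehicle alone, namely *Ifng*, *Fasl*, *Ccl3*, *Ccl4* and *Xcl1*, so that their entry into the test rested on the group in which they were high. *Ifng*, the type 1 cytokine gene that T-bet is known to drive, was at 76.5, 32.8 and 37.8 in vehicle and at 0 with melatonin, at least 16.2-fold lower (limma adjusted p = 0.000107). The chemokine genes *Ccl3* (129.6 to 2.40), *Ccl4* (141 to 2.07) and *Xcl1* (75.1 to 1.34) had log2 fold changes of -5.57, -5.81 and -5.47 (limma adjusted p = 0.000221, 0.00012 and 0.00028). These depended on single melatonin samples, as *Ccl3* was at -4.86 without sample 1 and at -6.16 without sample 3, *Ccl4* at -5.14 without sample 1, and *Xcl1* at -6.25 without sample 3. *Fasl*, the death ligand gene, was at least 7.58-fold lower (limma adjusted p = 0.00027). *Tnfsf10*, the gene of TRAIL, fell from 713.5 to 392 (log2 fold change -0.85, limma adjusted p = 0.000679). *Lta* was not called, at 1900.2 and 1811 (log2 fold change -0.10, limma adjusted p = 0.618), and *Tnf* was called in only 1 of the 6 fits without a single sample.

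The ligands of these receptors were tested as well, and 3 of 9 were lower and 3 higher, beside 24.7% and 24.5% over all genes. *Cd48*, which encodes the ligand of 2B4, fell from 5605 ± 343 to 2086 ± 314 (log2 fold change -1.43, limma adjusted p = 5.62e-05), the same direction as *Cd244a*. *H2-T23*, which encodes Qa-1, the ligand of the NKG2A/CD94 receptor, fell from 7037 to 5089 (log2 fold change -0.48, limma adjusted p = 0.0152), and lost the call without the first vehicle sample. *Cadm1* rose from 39.4 ± 6.05 to 216 ± 48.1 (log2 fold change 2.42, limma adjusted p = 8.97e-05). *Raet1d*, the gene of a NKG2D ligand, was at 0 in vehicle and at 1.87, 7.65 and 10.1 with melatonin (limma adjusted p = 0.0204). *Raet1d* reached the minimum in 1 sample alone, lost the call without melatonin sample 2, and was too low to be tested without melatonin sample 3. *Nectin2*, the gene of a DNAM-1 ligand, fell from 44.1 to 16.4 (log2 fold change -1.40, limma adjusted p = 0.0165), a call lost without vehicle sample 2 or 3.

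**Figure D4:**
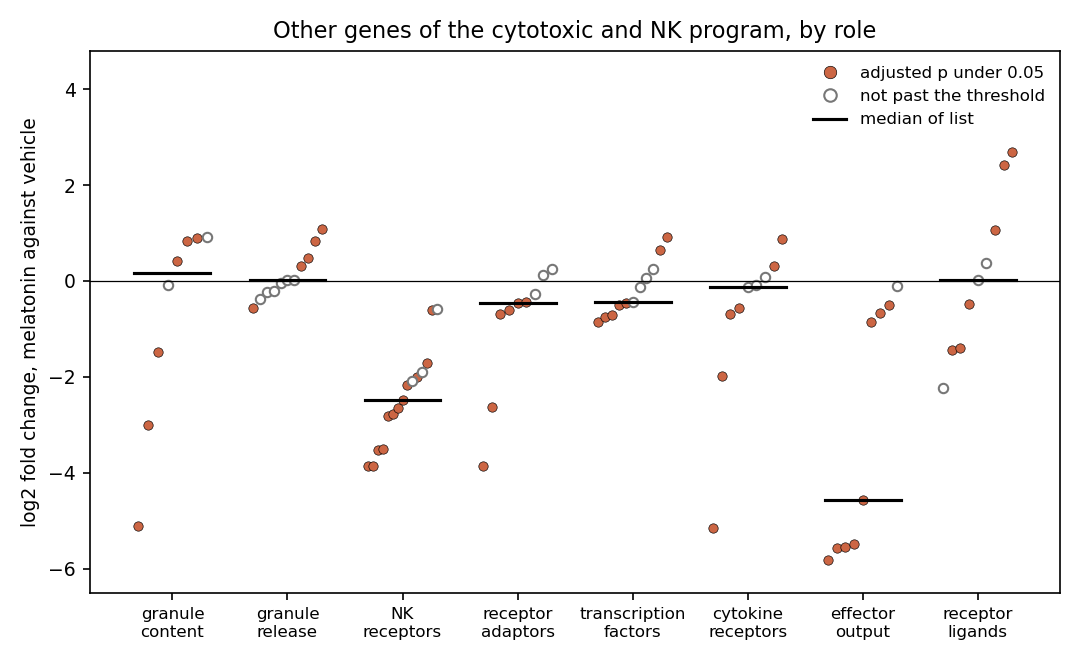
Log2 fold change (melatonin minus vehicle) of each tested gene of the 8 lists, by role. Filled points are genes called by limma in either direction, open points are genes not called, and bars are the list medians. The NK receptor genes and effector genes lie mostly below 0, whereas the genes of granule release lie around 0.

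Markers of other cells that a sort could hold were measured beside these genes. The sum of the NK/ILC1 markers outside the 10 genes was 3287 to 3924 in vehicle and 3726 to 5666 with melatonin, made up mostly of *Cd200r1* and *Tnfsf10*. Of 4 tested, *Tnfsf10* was lower, *Cd200r1* was higher (limma adjusted p = 0.0423, a call lost without any one of the vehicle samples), and *Itga2* (78.0 and 61.4, limma adjusted p = 0.375) and *Itga1* were not called. *Klrb1c* was at 5.6 to 9.4 in vehicle and at 0 with melatonin, and *Eomes* was at 5.6 or less in all samples. The T cell markers summed to 6146 to 6677 in vehicle and to 2177 to 3214 with melatonin. Of these markers, 7 of 7 tested were lower, beside 24.7% over all genes. *Trbc2* was at 3558 and 1455, *Trbc1* at 1449 and 474, *Cd3g* at 1062 and 536, *Cd3e* at 210 and 65.5, and *Trdc* at 103 and 49.3 (means of vehicle and melatonin). *Cd3d* and *Trac* were low in both groups, at 11.8 and 2.32 and at 8.34 and 0.958, and reached the minimum in vehicle alone. The call of *Cd3d* held only in the fit without melatonin sample 3, and that of *Trac* was lost without vehicle sample 3 or melatonin sample 2, and without vehicle sample 2 it was too low to be tested. The part of NK cells and T cells in the result was not tested.

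Of the markers of further lineages, 6 of 8 tested myeloid genes were lower, beside 24.7% over all genes. The myeloid sum was 1462 to 1719 in vehicle and 364 to 846 with melatonin. The call of *Itgax* was lost without any one of the vehicle samples, and that of *Adgre1* without vehicle sample 1 or 2 or melatonin sample 2. Of 4 mast cell and basophil genes tested, 1 was lower, *Tpsab1* (1245 to 399, limma adjusted p = 0.00463), which made up most of the sum of 1126 to 1403 in vehicle and 167 to 582 with melatonin. *Cpa3*, *Cma1* and *Tpsb2* were not called. *Il22*, a cytokine gene of ILC3s, fell from 284 to 6.09 (limma adjusted p = 0.000509), with a log2 fold change of -6.23 that was -5.27 without melatonin sample 1 and -7.32 without melatonin sample 3. Of the B cell genes, *Cd79b* alone was tested and fell from 297 to 142 (limma adjusted p = 0.000453).

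The epithelial markers went in opposite directions. Of 4 tested, 3 were lower and 1 was higher, beside 24.7% and 24.5% over all genes. The median log2 fold change of the 4 was -5.12, or -4.78 with the genes at 3 reads or fewer set at their bound. The club cell gene *Scgb1a1*, whose vehicle values are given above, was at 0, 0 and 1.01 with melatonin, the alveolar gene *Sftpa1* was at least 22.3-fold lower, and *Sftpc*, also of alveolar cells, had a log2 fold change of -5.07. All 3 reached the minimum in vehicle alone, and the fitted log2 fold change of *Scgb1a1* ranged from -7.97 without vehicle sample 2 to -5.21 without vehicle sample 3. *Epcam* rose from 667 to 1097 (log2 fold change 0.72, limma adjusted p = 0.00107). *Epcam* made up most of the epithelial sum with melatonin, which was 913 to 2163 in vehicle and 1025 to 1236 with melatonin. The part of these lineages in the lower counts of the 10 genes was not tested.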

How the data were processed

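RNA of 3 melatonin-treated and 3 vehicle-treated samples of aILC2s was sequenced after SMARTer Ultra Low Input library preparation on a NextSeq 500. In Partek Flow the authors trimmed and mapped the reads (STAR, mm39), quantified them to Gencode M33 with an expectation-maximisation algorithm that can divide a read between genes, removed genes with few counts (the smallest sum over the 6 libraries was 10 estimated reads), and deposited the signal as counts divided by a DESeq2 size factor per library. Between 72.1% and 73.5% of the values under 60 estimated reads were whole (tolerance 0.01), so the deposited values were treated as normalised signal and not as counts. Strand use in counting is not given in the sources used here. Each library held 17056267 to 20511708 estimated reads.

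From these values, limma 3.58.1 in R 4.3.3 (empirical Bayes with a mean trend) was fitted to log2(value + 1) over the 14419 genes that reached 10 in any sample, melatonin against vehicle, without covariates. P-values were adjusted by Benjamini-Hochberg over these genes with a threshold of 0.05, and the fit was tested on simulated data. Fold changes of low genes on this scale depend on the value of 1 added before the logarithm. They can be smaller or larger than the fold of the group means. The exact permutation test of 3 against 3 samples cannot go below 0.1. The labels do not say whether the samples came from separate animals or cultures, so p-values measure the spread between these samples, which may in part be technical, although the Y transcripts show more than one source among the melatonin samples. The library numbers follow the treatment, so a batch along them and the treatment cannot be told apart.

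Lower bounds of a fold used 3 estimated reads per library, and these bounds and the interval of the *Nkg7* ratio cover counting error only. Lengths are those of the longest annotated transcript. Of the 16381 listed genes, 16334 were named in Gencode M39, which also gave the GRCm39 positions. Promoter sequences came from RefSeq (GRCm38.p6), and their GRCm39 coordinates from the one exact match of each on its chromosome. Genes of each list were named if they were among the 4 largest changes past the threshold, were one of the 2 most abundant, or lay between genes of the program. *Serpinb9*, *Stxbp2*, *Hcst*, *Lat*, *Eomes*, *Tox*, *Fasl*, *Tnf*, *Tgfbr2* and *Klrb1c* fall outside that rule and were picked after their values were seen. The same holds for the single marker genes other than the highest of a list. One marker gene, and the count of its list, is not reported here. The 10 genes and all lists were chosen with earlier results of these data known. Alternatives were other scalings, filters, pseudocounts, thresholds, limma settings, a replicate block, leaving out single samples, and melatonin sample 1 alone against vehicle.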

Additional observations from a re-analysis of the deposited data

How the results depend on the processing

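As this contrast chose the 10 genes, nothing is read from their calls in the alternatives. With only genes of a mean of at least 100 kept, 2 of the 10 remained to be fitted and both were called. The size of the change depended on the value added before the logarithm for *Tbx21* and the genes at or near 0. For *Nkg7* and *Tbx21* it is given above. For *Klrd1* the log2 fold change was -1.72 with 10 added and -7.84 with 0.1 added. Of the genes in the 8 lists, 20 instead of 42 were called lower and 13 instead of 14 higher under the same minimum mean, where 51 instead of 81 were fitted, and 25 were lower when the log2 fold change had to reach 1 in size, while 8 instead of 14 were called higher at an adjusted p under 0.01 and 4 with the fold minimum. Over all genes, 2267 were lower and 2188 higher under 0.01, and 1392 and 866 with the fold minimum, where fewer genes can pass by construction. With melatonin sample 1 alone against vehicle, where the lone sample is assumed to vary like the vehicle samples, 10 of the 10 genes were called. Without single samples it was 10 each time, 37 to 47 list genes were lower and 11 to 13 higher, and over all genes 2708 to 3619 were lower and 2747 to 3454 higher. Same-numbered samples did not deviate together (r = -0.054, 0.006 and -0.048), and differently numbered samples gave r from -0.064 to 0.113. With 3 samples per group, these values cannot decide whether the numbers pair the samples. With a replicate block 10 of the 10 genes were called, and 3278 genes were lower and 3160.0 higher. At the depth of these libraries, the 5 receptor genes at or near 0 could not be measured below 3 reads, and their drop has no upper limit here.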

Other observations

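The genes that went from at least 10 in every vehicle sample to 3 reads or fewer in every melatonin sample numbered 63. Of these, 5 were *Ncr1*, *Klrk1*, *Klrc1*, *Klrd1* and *Cd244a*, and 5 more were the list genes *Ifng*, *Il12rb2*, *Gzmc*, *Fasl* and *Klri2*. The others with the highest vehicle means were *Scgb1a1*, a club cell gene, at 387 (1045 in one library), *Sprn* at 128, *Disp2* at 113 and *Inhba*, which encodes an activin chain, at 110.4. The collagenase gene *Mmp13* (77.0), the surfactant gene *Sftpa1* (67.6), the G protein-coupled receptor gene *Gpr15* (63.7) and the immunoglobulin light chain gene *Igkc* (60.7) were also among them. Genes of lymphocyte receptors thus stood beside genes of lung epithelium and B cells in this set, and it was not tested for any theme. These genes were named after their values were seen.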
